A study of Homo sapiens with 24 samples.

Results

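The genes described here are TBC1D4 and related members of the TBC1 domain family, which encode GTPase-activating proteins for RAB GTPases. Of 10 listed genes (TBC1D1, TBC1D4, TBC1D5, TBC1D7, TBC1D8, TBC1D9, TBC1D10C, TBC1D13, TBC1D15 and TBC1D22A), 9 had at least 1 probe set whose only gene symbol in the platform annotation was theirs, among 19775 such genes on the array. TBC1D8 was not analysed here. The 9 genes had 23 probe sets of 54613, and 20 of these lay above a filter on dim probe sets, the median of the mean log2 intensity, which 27306 probe sets passed. The genes were chosen by family, with TBC1D4 in the lead, after the log2 differences between miR-28 and control cells at 12 h and at 24 h had been seen, so the members' values in those comparisons are given as a description without a test.

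The samples were P3HR1 cells, an established Epstein-Barr virus-carrying Burkitt lymphoma line, with the doxycycline-inducible vector pRTS1. The 4 groups were miR-28 cells (GFP together with the miR-28 precursor) after 24 h of doxycycline, miR-28 cells after 12 h, control cells (GFP alone) after 24 h and control cells after 12 h. Each genotype existed as 2 bulk populations lettered A and B, each induced 3 times per time point, which gave 6 Affymetrix arrays per group and 24 in all. The labels give the dose as 0.1 ug/ml in one field and 1 ug/ml in another for every group. All groups received doxycycline, no uninduced array was analysed here, and a difference that the miR-28 populations had before induction cannot be told apart from one that followed it.

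RAB GTPases mark membrane compartments and recruit the machinery that moves, tethers and fuses vesicles. TBC-domain proteins typically end that activity by accelerating GTP hydrolysis on the RAB, so a member with this activity acts as a brake on a set of trafficking steps. TBC1D4, also called AS160, is known best from muscle and fat, where phosphorylation by AKT and binding of 14-3-3 proteins release its hold on the vesicles that carry the glucose transporter GLUT4. TBC1D1 is its closest relative and a target of AKT and of the AMP-activated kinase.

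MicroRNAs act by pairing of their seed with target transcripts, so the mature strand that could be read from the RefSeq miRNA table is shown to identify what the miR-28 cells were built to make. It lies at chr3:188688834-188688855 on the plus strand of GRCh38.p14, is 22 bases long, and has its seed, bases 2 to 8, in capitals.
hsa-miR-28-3p: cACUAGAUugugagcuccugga
The other mature strand is hsa-miR-28-5p. The array had 0 probe sets with the symbol MIR28, so the level of the microRNA was not measured here, and the transcripts of the members were not searched for seed matches.

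The deposited intensities had medians per array of 73.4 to 93.4, and arrays of the same group correlated at r between 0.94 and 0.96. No pair of the 24 arrays was identical. The B-cell markers with a probe set (5 of 6; MS4A1, CD79A, CD79B, CD22 and PAX5) had mean intensities of 4223 to 18570. The T-cell markers, 4 of 4, lay between 14.6 and 89.8, the 3 natural killer markers between 15.4 and 103.2, the 4 myeloid markers between 19.1 and 84.6, and the 5 fibroblast and epithelial markers between 23.7 and 515.4, the last being DCN. On 2 arrays the log2 ratio of the 3′ to the 5′ ACTB probe set, a sign of RNA quality, was above 1: miR-28 replicate B2 at 12 h (1.05) and control replicate B2 at 24 h (1.59). Results that move without these arrays are given with and without them.

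TBC1D4 was lower in miR-28 cells at both times on both of its probe sets, by about 0.5 log2 units on the one with the smaller spread. That probe set, 203387_s_at, had a lowest, median and highest intensity of 1934, 2266 and 2382 on the miR-28 arrays at 12 h, against 2987, 3045 and 3278 on the control arrays at 12 h. At 24 h the miR-28 arrays had 1733, 1865 and 2052, against 2638, 2747 and 3053 on the control arrays. Every miR-28 array lay below every control array at the same time, and also below every control array of the other time. The means were 2209 ± 158 in miR-28 cells and 3087 ± 110 in control cells at 12 h (SD, n = 6 each). At 24 h they were 1868 ± 119 in miR-28 cells and 2784 ± 145 in control cells (SD, n = 6 each). The log2 difference, miR-28 minus control, was -0.48 ± 0.06 (SE) at 12 h, a ratio of 0.715 on the scale of log2(intensity + 8), and its 95% interval ran from -0.62 to -0.35. At 24 h it was -0.57 ± 0.06, a ratio of 0.671, with an interval from -0.71 to -0.44. These are bulk samples, in which fewer cells with the transcript and less transcript per cell cannot be told apart.

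Both populations of each genotype shared the TBC1D4 difference on 203387_s_at. Averaged over the times, miR-28 minus control was -0.49 between the populations lettered A and -0.57 between those lettered B on 203387_s_at. The difference between these values, B minus A, was -0.08 ± 0.09 (limma adjusted p = 0.994), with an interval from -0.27 to 0.12. The letters are not known to pair a miR-28 population with a control population. Without both arrays of raised ACTB ratio the differences were -0.47 at 12 h and -0.58 at 24 h.

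The second TBC1D4 probe set, 203386_at, pointed the same way with a wider spread. The 12 h values were 1443, 2177 and 2823 (lowest, median and highest) on miR-28 arrays, against 2141, 2461 and 2694 on control arrays. At 24 h it had 1615, 2175 and 2379 on miR-28 arrays, against 1709, 2800 and 3150 on control arrays. The genotypes overlapped at both times on this probe set. Its log2 differences were -0.27 ± 0.16 at 12 h and -0.37 ± 0.16 at 24 h, with intervals from -0.59 to 0.06 and from -0.69 to -0.05. Averaged over the times, the difference was -0.20 between the A populations and -0.44 between the B populations. Between the A populations at 12 h the means were close, 2418 in miR-28 cells and 2459 in control cells. Across the 24 arrays the log2 values of the TBC1D4 probe sets correlated at r = 0.55, and at r = 0.44 once the group means were taken off. This describes arrays that share the genotype and time groups.

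**Figure D1:**
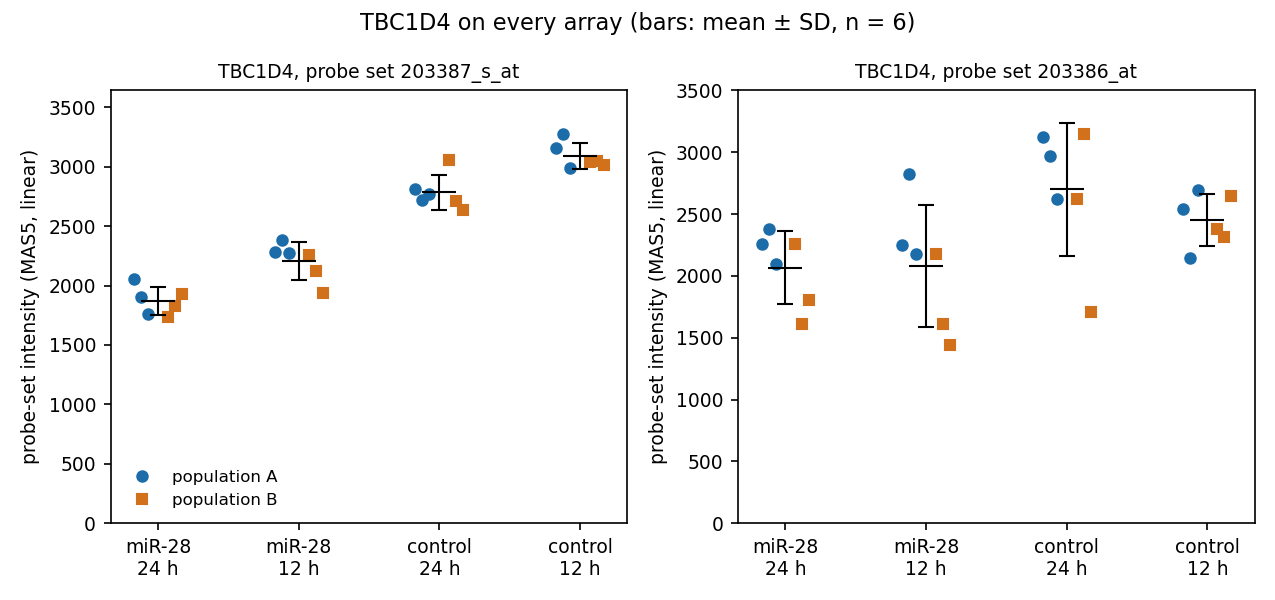
Intensity (linear MAS5 scale, vertical axis from 0) of the TBC1D4 probe sets 203387_s_at (left) and 203386_at (right) on every array, by genotype and time. Points are arrays, circles from population A and squares from population B, and bars are the mean ± SD of 6 arrays. On 203387_s_at the highest miR-28 array (2382) lies below the lowest control array (2638), and on 203386_at the genotypes overlap.

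With time, TBC1D4 on 203387_s_at stood lower at 24 h than at 12 h in both genotypes without passing the test. In miR-28 cells the log2 difference, 24 h minus 12 h, was -0.24 ± 0.06 (limma adjusted p = 0.0507), and in control cells it was -0.15 ± 0.06 (adjusted p = 0.221). The value in miR-28 cells lay at the threshold of 0.05, and its adjusted p over all alternatives ran between 0.0196 and 0.597. It passed, for example, when each gene was represented by 1 probe set (adjusted p = 0.0196). It also passed without control replicate B1 at 24 h (0.0497), control replicate B2 at 24 h (0.0483), miR-28 replicate B3 at 12 h (0.0284) or miR-28 replicate A1 at 24 h (0.0366). The miR-28 difference at 24 h minus that at 12 h was -0.09 ± 0.09 (adjusted p = 0.928), with an interval from -0.28 to 0.10, a contrast that shares its arrays with the comparisons known when the genes were chosen. Probe set 203386_at gave 0.01 ± 0.16 in miR-28 cells and 0.11 ± 0.16 in control cells for the change with time (limma adjusted p = 0.981 and 0.775). The intervals ran from -0.31 to 0.34 and from -0.21 to 0.44, too wide to set a direction, and they include the values of 203387_s_at.

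TBC1D1, the closest relative of TBC1D4, rose with time on 2 probe sets, each in a different genotype. On its brightest probe set, 212350_at, the control arrays had 990.9, 1131 and 1254 (lowest, median and highest) at 24 h, against 736.1, 821.7 and 874.1 at 12 h. The control arrays of these times did not overlap, and the rise was 0.44 ± 0.11 (log2, limma adjusted p = 0.0309), higher in 6 of 6 arrays. The miR-28 arrays had 800.6, 971.9 and 1158 at 24 h, against 684.8, 786.7 and 1065 at 12 h. They overlapped, and their difference was 0.24 ± 0.11 (adjusted p = 0.307). On 227945_at the miR-28 arrays had 250.5, 274.7 and 303.5 at 24 h, against 138.3, 183.7 and 221.0 at 12 h. These ranges did not overlap either, and the rise was 0.59 ± 0.13 (adjusted p = 0.0155), while the control arrays gave 0.27 ± 0.13 (adjusted p = 0.279).

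The difference between genotypes in the TBC1D1 time change did not pass on either probe set, at -0.21 ± 0.16 for 212350_at and 0.32 ± 0.18 for 227945_at (limma adjusted p = 0.909 and 0.867). The rise of 212350_at in control cells lost its call in 13 of 37 alternatives. Among them were the fits without control replicate A1, B1, B2 or B3 at 12 h, or without A1, A3, B2 or B3 at 24 h, with log2 values between 0.41 and 0.46 and adjusted p between 0.0511 and 0.0725. Without both arrays of raised ACTB ratio it was 0.43 (adjusted p = 0.0502). The rise of 227945_at in miR-28 cells lost its call in 4 of 35 alternatives.

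Between genotypes the TBC1D1 probe sets disagreed. Probe set 212350_at gave log2 differences, miR-28 minus control, of 0.00 ± 0.11 at 12 h and -0.20 ± 0.11 at 24 h, and 227945_at gave -0.34 ± 0.13 and -0.01 ± 0.13. The dim probe set 1569566_at had 6.41, 42.7 and 69.4 (lowest, median and highest) on miR-28 arrays at 12 h, against 88.6, 106.9 and 136.7 on control arrays. At 24 h its medians were 89.7 on miR-28 arrays and 95.0 on control arrays. The miR-28 mean at 12 h, 40.9, lay below the level of the filter, which 1569566_at passed through its other groups, so its difference at 12 h (-1.46 ± 0.34) rests on values near background, and no test is given for its change with time. The remaining TBC1D1 probe set above the filter, 1568713_a_at, gave 0.49 ± 0.43 at 12 h and -0.23 ± 0.43 at 24 h between genotypes. In control cells its arrays had 89.2 to 193.9 at 24 h, against 16.6 to 89.0 at 12 h, a time difference of 1.10 ± 0.43. The control mean at 12 h, 59.4, lay below the level of the filter, which 1568713_a_at passed through its other groups. No test is therefore given for this change with time either. Probe set 214013_s_at lay below the filter, with group means of 5.75 to 39.4.

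**Figure D2:**
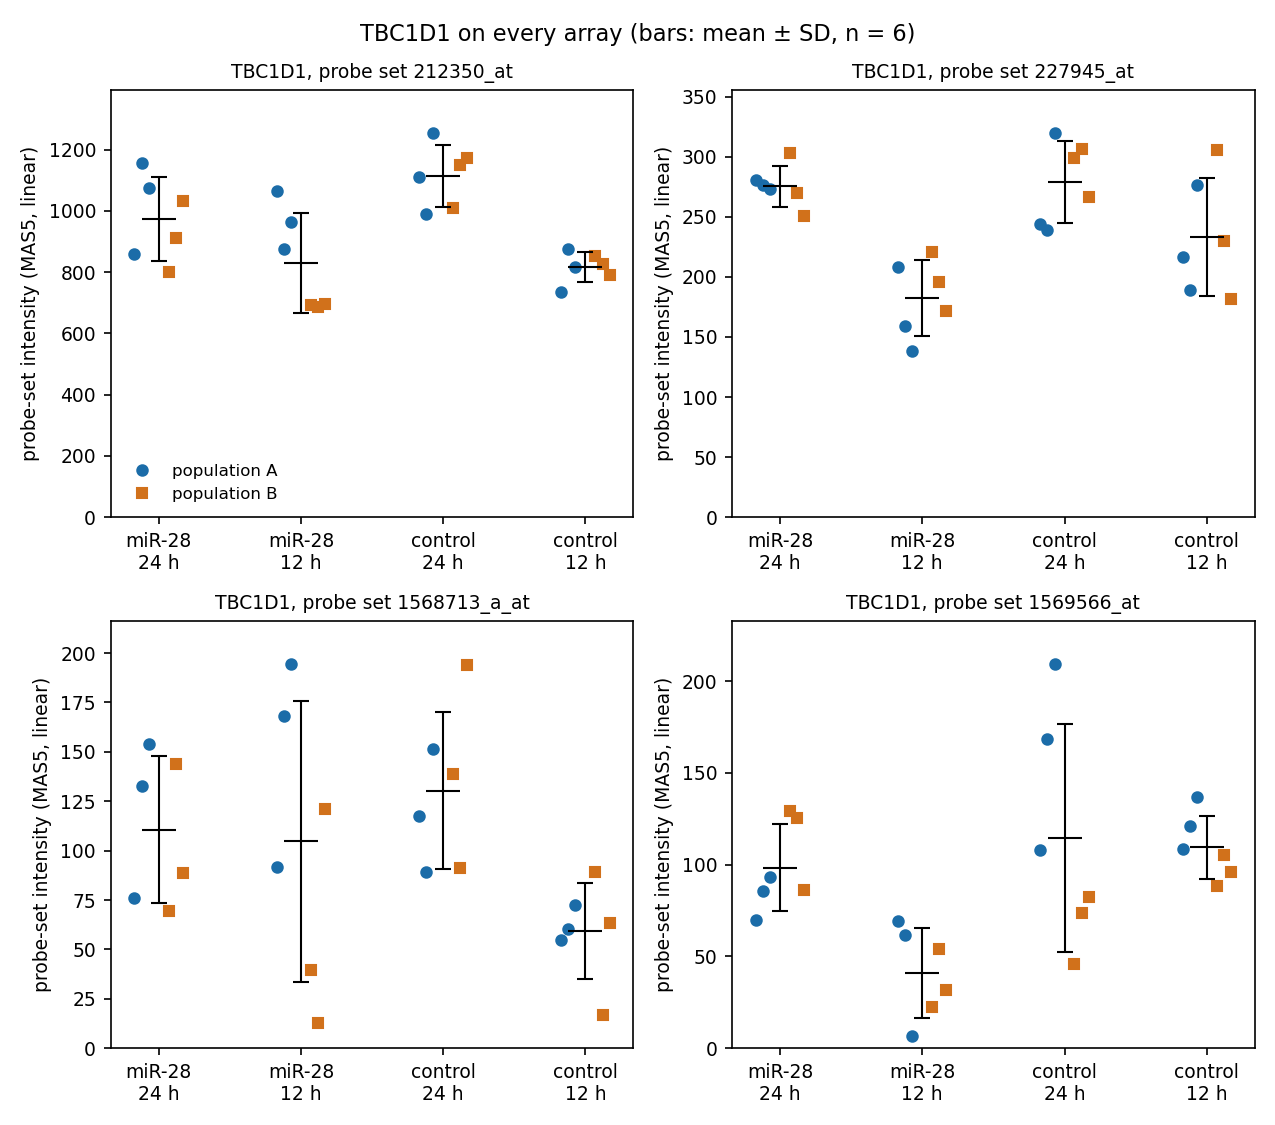
Intensity (linear MAS5 scale, vertical axes from 0) of the 4 TBC1D1 probe sets above the filter on every array, by genotype and time. Points are arrays, circles from population A and squares from population B, and bars are the mean ± SD of 6 arrays. The control arrays at 24 h lie above those at 12 h on 212350_at (990.9 and up, against 874.1 and below), and the miR-28 arrays do so on 227945_at (250.5 and up, against 221.0 and below).

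TBC1D9, whose protein carries GRAM domains in addition to its TBC domain, had the largest positive difference of the 20 member probe sets at 24 h. On 212956_at the miR-28 arrays had 637.6, 946.4 and 1144 (lowest, median and highest) at 24 h, against 447.3, 498.6 and 630.2 on the control arrays. The genotypes did not overlap at 24 h, though the lowest miR-28 array and the highest control array were close. Among the 12 h arrays it had 775.2, 840.5 and 1090 on miR-28 arrays, against 467.0, 695.1 and 874.5 on control arrays, which overlapped. The log2 difference was 0.35 ± 0.15 at 12 h and 0.83 ± 0.15 at 24 h, a ratio of 1.78 at the later time with a 95% interval of the log2 value from 0.53 to 1.13. The miR-28 level differed little between the times (0.04 ± 0.15; limma adjusted p = 0.937), and the control level was lower at 24 h without passing the test (-0.43 ± 0.15; adjusted p = 0.109). That control difference did pass without control replicate A3 at 12 h (-0.54, adjusted p = 0.0304) and with a stricter filter (adjusted p = 0.0459). The miR-28 difference at 24 h minus that at 12 h was 0.47 ± 0.21 (adjusted p = 0.775).

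On the dimmer TBC1D9 probe set, 212960_at, the genotypes separated between the A populations and overlapped between the B populations. In the populations lettered A the arrays had 237.5, 264.1 and 244.3 in miR-28 cells at 24 h, against 55.8, 76.9 and 77.1 in control cells. In those lettered B they had 121.9, 153.5 and 148.2 in miR-28 cells at 24 h, against 149.4, 146.2 and 260.6 in control cells. Averaged over the times, the log2 difference was 1.13 between the A populations and -0.22 between the B populations. The difference, B minus A, was -1.36 ± 0.23, which did not pass over all probe sets (limma adjusted p = 0.25). On 212956_at the values were 0.79 between the A populations and 0.40 between the B populations (B minus A, -0.39 ± 0.20, adjusted p = 0.89). Probe set 237091_at lay below the filter, with group means of 7.39 to 13.2.

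**Figure D3:**
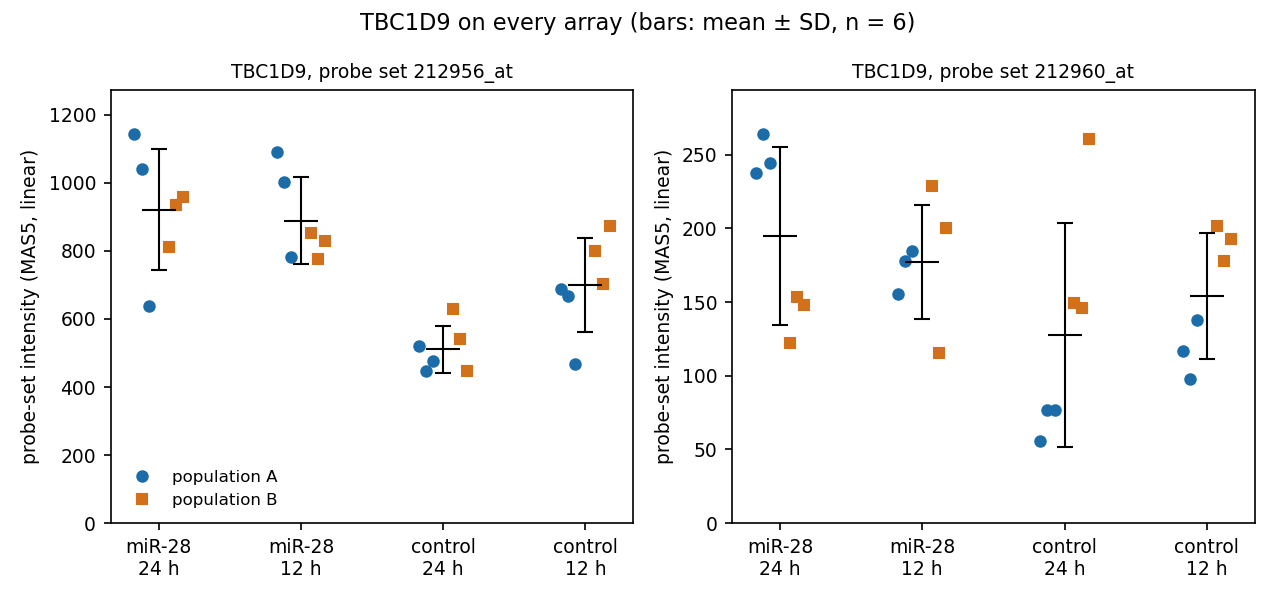
Intensity (linear MAS5 scale, vertical axes from 0) of the TBC1D9 probe sets 212956_at (left) and 212960_at (right) on every array, by genotype and time. Points are arrays, circles from population A and squares from population B, and bars are the mean ± SD of 6 arrays. On 212956_at the miR-28 arrays at 24 h (637.6 and up) lie above the control arrays (630.2 and below), and on 212960_at only the A populations separate.

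TBC1D5 and TBC1D15 both act on RAB7, the GTPase of late endosomes and lysosomes. TBC1D5 binds the retromer coat, and TBC1D15 is recruited to mitochondria by FIS1. The brightest TBC1D5 probe set, 201813_s_at, had 759.1, 887.3 and 1136 (lowest, median and highest) on miR-28 arrays at 24 h, against 969.5, 1055 and 1232 on control arrays. After 12 h it had 865.5, 963.4 and 1311 on miR-28 arrays, against 900.6, 1093 and 1205 on control arrays. The genotypes overlapped at both times. The log2 differences for 201813_s_at were -0.11 ± 0.11 at 12 h and -0.25 ± 0.11 at 24 h, and 201814_at gave -0.20 ± 0.10 and -0.26 ± 0.10. The TBC1D5 probe set 201815_s_at departed from these at 24 h, with -0.15 ± 0.15 at 12 h and 0.00 ± 0.15 at 24 h. None of the 3 probe sets passed the test of the time change in either genotype (limma adjusted p between 0.282 and 0.994).

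TBC1D15 on 218268_at had 499.8, 651.0 and 820.6 on miR-28 arrays at 24 h, against 610.5, 691.2 and 803.4 on control arrays. The values at 12 h were 495.8, 588.1 and 704.5 on miR-28 arrays, against 521.2, 559.1 and 615.5 on control arrays. The genotypes overlapped, with log2 differences of 0.04 ± 0.11 at 12 h and -0.11 ± 0.11 at 24 h. In control cells 218268_at gave 0.29 ± 0.11 with time, which did not pass (limma adjusted p = 0.166), and miR-28 cells gave 0.15 ± 0.11 (adjusted p = 0.575). The dim probe set 230072_at had differences of -0.04 ± 0.45 and -0.21 ± 0.45 between genotypes, too imprecise to set a direction.

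TBC1D13, a GTPase-activating protein for RAB35 studied in mouse adipocytes, had negative log2 differences, miR-28 minus control, on both probe sets. On 44696_at it had 343.3, 427.5 and 563.5 (lowest, median and highest) on miR-28 arrays at 24 h, against 485.5, 564.1 and 592.8 on control arrays. For 12 h they were 447.2, 532.9 and 570.7 on miR-28 arrays, against 442.4, 553.9 and 716.1 on control arrays. The genotypes overlapped at both times. The log2 differences were -0.12 ± 0.13 at 12 h and -0.32 ± 0.13 at 24 h. On 218596_at they were -0.26 ± 0.38 and -0.54 ± 0.38, too imprecise to set a direction. The time differences in miR-28 cells, -0.23 ± 0.13 and -0.69 ± 0.38 for these probe sets, did not pass (limma adjusted p = 0.40 and 0.396).

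TBC1D22A, whose protein binds the Golgi scaffold ACBD3, differed between its probe sets. The brightest, 33778_at, had 1243, 1390 and 1543 on miR-28 arrays at 24 h, against 1006, 1314 and 1532 on control arrays. In the 12 h arrays it had 1111, 1318 and 1363 on miR-28 arrays, against 934.7, 1260 and 1388 on control arrays. These overlapped, with log2 differences of 0.07 ± 0.10 at 12 h and 0.12 ± 0.10 at 24 h. On 209650_s_at the difference was -0.25 ± 0.14 at 12 h and 0.43 ± 0.14 at 24 h. The miR-28 arrays of 209650_s_at had 676.7, 720.2 and 852.3 at 24 h, against 474.1, 519.1 and 657.8 at 12 h. These ranges did not overlap, yet 0.42 ± 0.14 did not pass (limma adjusted p = 0.123), nor did the difference between the genotypes in this time change, 0.69 ± 0.20 (adjusted p = 0.629). With each array centred on its median the time difference in miR-28 cells was 0.52 (adjusted p = 0.0451). Probe set 210144_at gave -0.09 ± 0.23 and -0.05 ± 0.23 between genotypes.

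TBC1D10C, or carabin, restrains calcineurin and RAS signalling in lymphocytes. On 228258_at it had 445.8, 587.8 and 822.2 on miR-28 arrays at 24 h, against 323.4, 454.5 and 667.4 on control arrays. At the earlier time it had 492.0, 591.9 and 791.9 on miR-28 arrays, against 432.3, 541.5 and 636.8 on control arrays. The genotypes overlapped, with log2 differences of 0.15 ± 0.17 at 12 h and 0.36 ± 0.17 at 24 h. TBC1D7, the subunit that joins TSC1 and TSC2 in the complex that restrains mTORC1, differed little between the groups. On 223461_at it had 876.8, 993.9 and 1087 on miR-28 arrays at 24 h, against 848.3, 915.7 and 1035 on control arrays. The corresponding 12 h values were 850.4, 997.3 and 1225 on miR-28 arrays, against 863.1, 989.9 and 1056 on control arrays. Its differences were 0.05 ± 0.09 at 12 h and 0.10 ± 0.09 at 24 h, and its time differences were -0.02 ± 0.09 in miR-28 cells and -0.07 ± 0.09 in control cells (limma adjusted p = 0.954 and 0.742). The other TBC1D7 probe set, 1563839_at, lay below the filter.

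Over the 20 member probe sets above the filter, 12 were lower and 8 higher in miR-28 cells at 12 h, with a median log2 difference of -0.10, against 0.00 over all 27306 probe sets. At 24 h 13 were lower and 7 higher, with a median of -0.09, against 0.01 over all. Several of these probe sets belong to the same gene. With each of the 9 genes taken by its brightest probe set, the median was 0.04 at 12 h and -0.11 at 24 h, so the sign at 12 h depended on this choice. At an adjusted p under 0.05 the limma fit called 1 of the 20 at 12 h, a lower one, against 0.136% of all probe sets (0.0952% lower). At 24 h it called 2 of the 20, 1 higher and 1 lower, against 2.26% of all (1.03% higher and 1.23% lower). Since this contrast was known when the genes were chosen, nothing is read from these counts. Ranges of the genotypes did not overlap for 2 of 20 at 12 h (0.67% of all) and for 2 of 20 at 24 h (2.46% of all). At 12 h these were TBC1D4 203387_s_at and the dim TBC1D1 1569566_at, which passed the filter through its other groups.

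**Figure D4:**
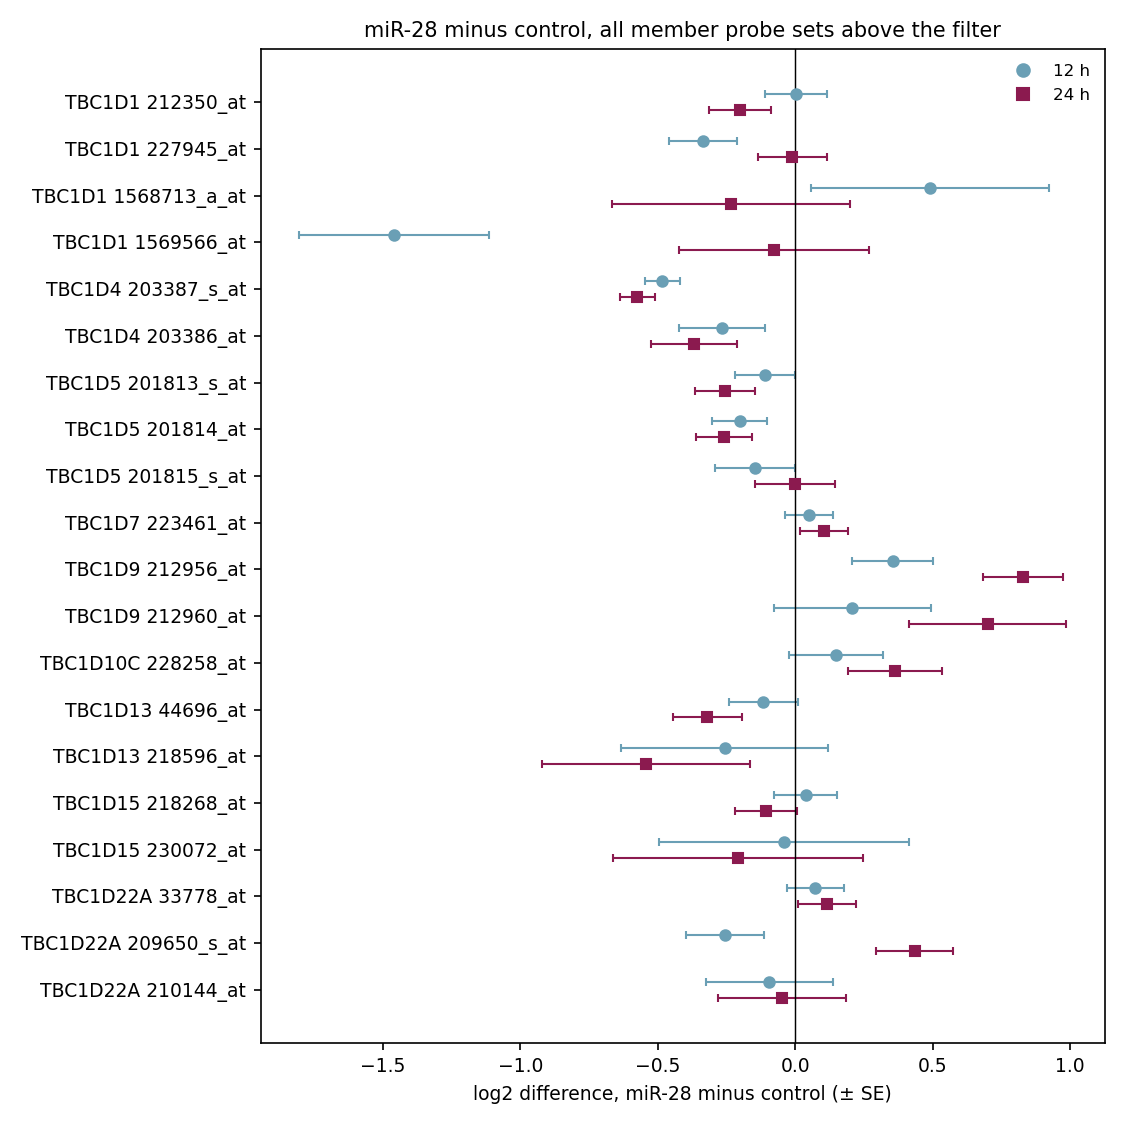
Log2 difference ± SE, miR-28 minus control (horizontal axis), at 12 h (circles) and 24 h (squares) for the 20 member probe sets above the filter. TBC1D4 203387_s_at lies at -0.48 and -0.57 with the narrowest error bars and TBC1D9 212956_at at 0.35 and 0.83. TBC1D1 1569566_at at 12 h (-1.46) rests on a miR-28 level near background.

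The changes with time share their arrays with the genotype comparisons, and earlier results of these data were known when the genes were chosen. In miR-28 cells 1 of the 20 probe sets passed, higher at 24 h (TBC1D1 227945_at), against 2.03% of all probe sets (1.03% higher). In control cells 1 of the 20 passed, also higher (TBC1D1 212350_at), against 3.27% of all (1.67% higher). The median log2 differences of the members were 0.05 in miR-28 cells and -0.05 in control cells, against -0.02 and -0.03 over all probe sets. Ranges of 24 h and 12 h did not overlap for 3 of 20 in miR-28 cells (2.57% of all), the dim TBC1D1 1569566_at among them. In control cells they did not overlap for 2 of 20 (2.81% of all), the dim TBC1D1 1568713_a_at among them. A share of 1 in 20 is near those backgrounds. For the miR-28 difference at 24 h minus that at 12 h limma called 0 of the 20 and 0% of all (3 of the 20 and 1655 of all had an unadjusted p under 0.05). For the difference between the populations it likewise called 0 of the 20 and 0% of all (2 of the 20 and 1573 of all unadjusted). Each group repeats the induction of 2 populations, and a p-value here rests on how far such arrays scatter, not on independently made cell lines.

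**Figure D5:**
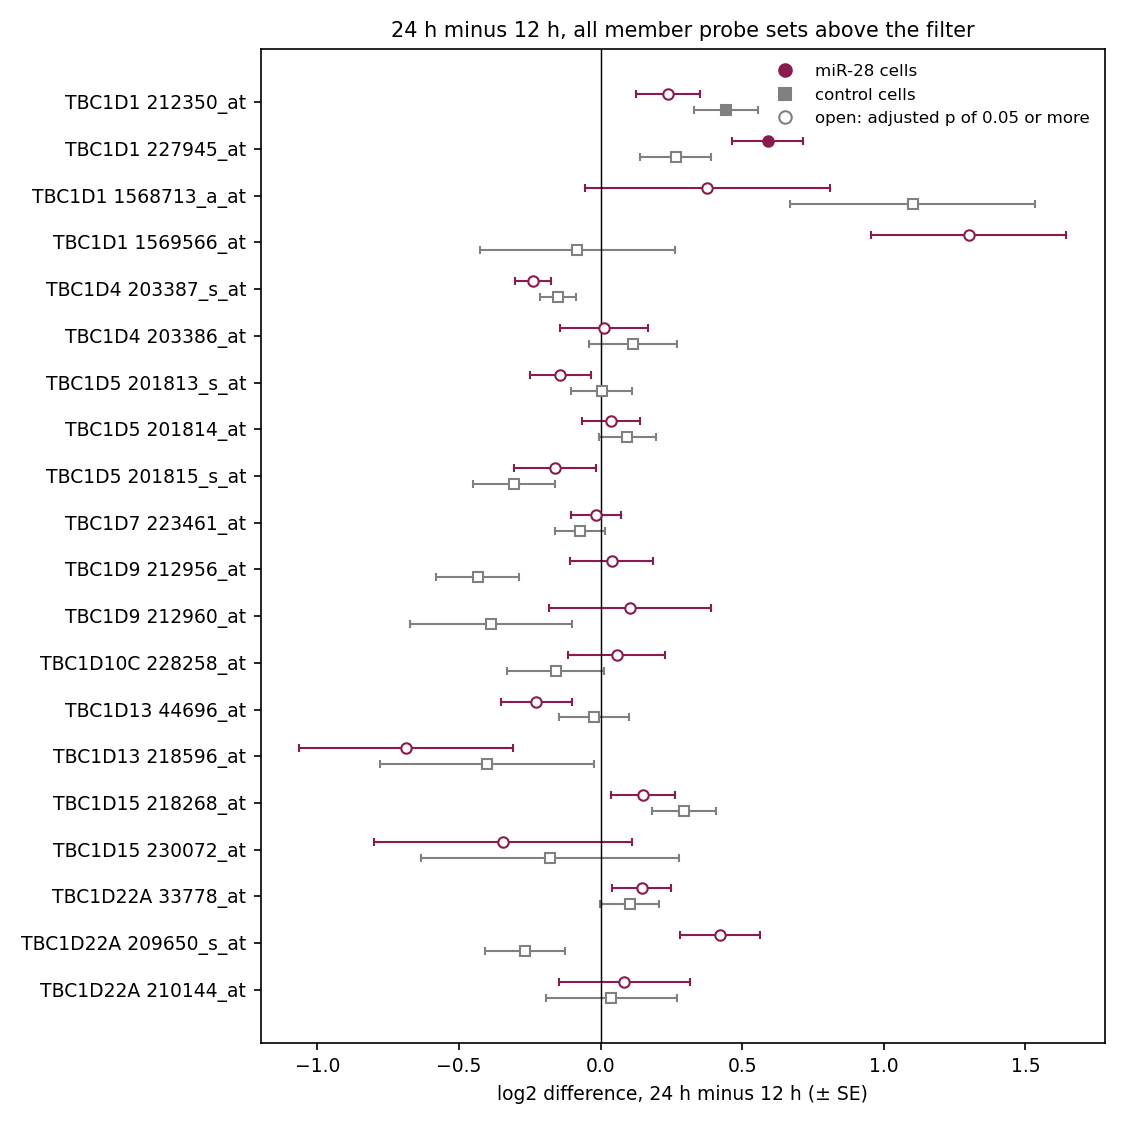
Log2 difference ± SE, 24 h minus 12 h (horizontal axis), in miR-28 cells (circles) and control cells (squares) for the 20 member probe sets above the filter. Filled symbols had a limma adjusted p under 0.05. The filled symbols are TBC1D1 227945_at in miR-28 cells (0.59) and TBC1D1 212350_at in control cells (0.44).

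Other TBC-domain genes were taken by their brightest probe set, and 24 of the 31 listed passed the filter. Between the genotypes limma called 0 of 24 at 12 h (0.136% of all probe sets) and 0 of 24 at 24 h (2.26% of all), where 1 and 3 had an unadjusted p under 0.05, and the median log2 differences were -0.02 and 0.01. With time it called 1 of 24 in miR-28 cells (2.03% of all) and 0 of 24 in control cells (3.27% of all; 3 unadjusted). These counts are near the background, which is over all probe sets above the filter and not only each gene's brightest. SGSM2, a RAB GTPase-activating protein with a RUN domain, rose in miR-28 cells (0.46 ± 0.11; limma adjusted p = 0.0249), with a mean intensity of 1929 at 24 h against 1392 at 12 h. In control cells it gave 0.35 ± 0.11 (adjusted p = 0.0744), and its other probe sets did not pass. The SGSM2 call was lost without miR-28 replicate A1 (adjusted p = 0.0547), A2 (0.0567) or A3 (0.0564) at 12 h, or A3 at 24 h (0.056).

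Among the RAB substrates and partners of these proteins, 8 of 9 passed the filter. RAB8B, a close relative of the TBC1D4 substrate RAB8A, had a mean intensity on 226633_at of 1466 in miR-28 cells at 24 h, against 2733 in control cells. Its log2 differences between genotypes were -0.44 ± 0.10 at 12 h and -0.90 ± 0.10 at 24 h. These were known when the list was drawn up and are given as a description without a test. With time limma called 1 of 8 genes in each genotype (2.03% and 3.27% of all probe sets), and it was RAB8B on 226633_at, which fell by 0.84 ± 0.10 in miR-28 cells (limma adjusted p = 0.000186) and by 0.38 ± 0.10 in control cells (adjusted p = 0.0309). These time changes share their arrays with the genotype differences known beforehand, so their p-values are not independent of how RAB8B was chosen. The fall in miR-28 cells lost its call with population means as the unit (adjusted p = 0.258), with population A only (0.237) and with population B only (0.183). The fall in control cells lost its call in 14 of 37 alternatives, among them the fits without control replicate A1 (adjusted p = 0.0655), A2 (0.0657), B1 (0.075) or B2 (0.051) at 12 h, or A1 (0.0677), A3 (0.0599), B2 (0.0546) or B3 (0.0693) at 24 h. Without both arrays of raised ACTB ratio its adjusted p was 0.0642. The other RAB8B probe sets, 219210_s_at and 222846_at, gave 0.11 ± 0.15 and -0.60 ± 0.23 at 24 h between genotypes. With time they gave -0.31 ± 0.15 and -0.74 ± 0.23 in miR-28 cells (limma adjusted p = 0.302 and 0.0941). In control cells they gave -0.32 ± 0.15 and -0.50 ± 0.23 (limma adjusted p = 0.25 and 0.269), so none of these passed. RAB10, the RAB that TBC1D4 acts on in fat cells, gave -0.03 ± 0.08 at 12 h and 0.03 ± 0.08 at 24 h (adjusted p = 0.982 and 0.931). RAB14, another TBC1D4 substrate, gave -0.26 ± 0.10 and -0.29 ± 0.10, which did not pass (adjusted p = 0.558 and 0.148).

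Of 17 kinases and 14-3-3 proteins that act on TBC1D1 and TBC1D4, 15 passed the filter. YWHAH, which encodes 14-3-3 eta, had a mean intensity on 201020_at of 1257 in miR-28 cells at 24 h, against 2489 in control cells. Its log2 differences between genotypes were -0.46 ± 0.12 at 12 h and -0.98 ± 0.12 at 24 h, which were also known beforehand and are given without a test. YWHAH rose with time in control cells (0.52 ± 0.12; limma adjusted p = 0.0175) and gave 0.01 ± 0.12 in miR-28 cells (adjusted p = 0.988), and the difference between these changes, -0.51 ± 0.17, did not pass (adjusted p = 0.668). These time changes share their arrays with the genotype differences known beforehand, so their p-values are not independent of how YWHAH was chosen. The other YWHAH probe set above the filter, 242325_at, gave -0.14 ± 0.42 at 24 h between genotypes. With time in control cells it gave 0.16 ± 0.42, which did not pass (limma adjusted p = 0.901). The AKT genes above the filter gave -0.16 ± 0.13 (AKT1) and -0.06 ± 0.16 (AKT2) at 24 h between genotypes, and neither passed (limma adjusted p = 0.637 and 0.918).

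With time limma called 1 of these 15 genes in miR-28 cells (PRKAG1; 2.03% of all probe sets) and 4 of 15 in control cells (PRKAG1 and PRKAB1 lower, AKT1 and YWHAH higher; 3.27% of all). These shares are over all probe sets above the filter, whereas each listed gene is taken by its brightest probe set. PRKAG1, a gamma subunit of the AMP-activated kinase, fell by 0.62 ± 0.13 both in miR-28 cells (limma adjusted p = 0.011) and in control cells (adjusted p = 0.0073). PRKAB1, a beta subunit, fell by 0.59 ± 0.14 in control cells on 201835_s_at (adjusted p = 0.0246), and gave -0.30 ± 0.14 in miR-28 cells (adjusted p = 0.32). Its other probe set, 201834_at, gave -0.18 ± 0.09 in control cells (adjusted p = 0.333). The remaining subunits of this kinase above the filter did not pass in control cells, with -0.40 ± 0.13 for PRKAA1, 0.01 ± 0.38 for PRKAA2 and -0.18 ± 0.11 for PRKAB2 (adjusted p = 0.0947, 0.993 and 0.46), nor in miR-28 cells (adjusted p between 0.516 and 0.727), and PRKAG2 lay below the filter. AKT1 rose in control cells (0.51 ± 0.13; adjusted p = 0.036) and gave 0.37 ± 0.13 in miR-28 cells (adjusted p = 0.149). The AKT1 call was lost without any 1 of 8 control arrays, namely A1, A2, B1 or B2 at 12 h and A1, A2, A3 or B3 at 24 h, with adjusted p between 0.0505 and 0.0969. The PRKAB1 call was lost without control replicate A3 (adjusted p = 0.0528), B1 (0.0531) or B3 (0.0501) at 12 h. With population means as the unit, or with population A or B only, the time calls of SGSM2, PRKAG1, PRKAB1, AKT1 and YWHAH were all lost (adjusted p between 0.165 and 0.568).

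For the cargo of the vesicles that TBC1D4 controls and the partners of the other members, a count of 0 among so few genes is near the share called over all probe sets (0.136% and 2.26% between genotypes at 12 h and 24 h, 2.03% and 3.27% with time in miR-28 and control cells). Of 8 glucose transporters and proteins of the GLUT4 storage vesicle, 5 passed the filter and limma called 0 of 5 in each of the 6 comparisons (0 at 12 h and 1 at 24 h between genotypes had an unadjusted p under 0.05). SLC2A1, the widely expressed transporter GLUT1, had a mean intensity of 712.4 in miR-28 cells and 764.9 in control cells at 24 h (-0.10 ± 0.15; limma adjusted p = 0.828). SLC2A3, or GLUT3, had 174.1 in miR-28 cells and 247.8 in control cells (-0.54 ± 0.22; adjusted p = 0.236). All 12 listed protein partners of the other members passed the filter and limma called 0 of 12 in each comparison (0 unadjusted between genotypes at either time), among them the retromer subunit VPS35 (-0.12 ± 0.10 at 24 h; adjusted p = 0.641) and the TBC1D7 partners TSC1 (0.03 ± 0.12; adjusted p = 0.944) and TSC2 (0.22 ± 0.19; adjusted p = 0.672).

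The probe sets whose log2 values followed TBC1D4 203387_s_at most closely over the 24 arrays belonged to ATP6V1A (r = 0.91), PPP6C (0.91), G3BP1 (0.90), NXT2 (0.90) and RPRD1A (0.89). All 5 were lower in miR-28 cells at both times, with log2 differences of -0.38 to -0.64 at 12 h and -0.72 to -0.93 at 24 h, so the points share the genotype groups. Once the group means were taken off, the closest were SAMD9 (0.79), SMC4 (0.79), BANK1 (0.75), USP8 (0.72) and PLK4 (0.71). Their log2 differences between genotypes had mixed signs, from -0.09 to 0.10 at 12 h and from -0.28 to 0.74 at 24 h. Both sets were picked for the highest r, without a test. No gene was in both sets.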

How the data were processed

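Expression was measured on 24 Affymetrix arrays of P3HR1 cells, 6 per group, with the label carried by biotinylated cRNA made from 6 ug of total RNA. The deposited unit was linear intensity per probe set, computed with MAS5 per the submitters' processing notes, with version and settings not given in the sources used here. The authors' scaling was kept, since the 2% trimmed mean of every array was 500.07 to 500.08. Of 54675 probe sets, 62 controls were left out. Symbols came from the platform annotation (41091 probe sets with 1 symbol, 1801 with several and 11721 with none) and were brought up to date through gene numbers in a RefSeq table, with 54 kept as given. Scanner files were not used here.

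Values were taken as log2(intensity + 8), which understates the change of dim genes, and probe sets with a mean above 6.11 were kept. Group means of all 24 arrays were fitted with limma 3.58.1 in R 4.3.3 on every kept probe set, without a block. Empirical Bayes p-values were two-sided and adjusted by the Benjamini-Hochberg method over 27306 probe sets, and a probe set was called at an adjusted p under 0.05. A fit with 8 means tested the populations. The fit was tested on simulated data. Alternatives changed the pseudocount, filter, scaling, number of probe sets per gene, populations, replicate block (also statmod 1.5.0 for a random block) and arrays.

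The members and lists were chosen with earlier results of these data known. Values are given for the TBC1D4 probe sets, each member's brightest and any called. In the lists, called genes are named, and RAB10, RAB14, AKT2, PRKAA1, PRKAA2, PRKAB2, PRKAG2, GLUT1, GLUT3, VPS35, TSC1 and TSC2 were named after their values were seen. Genes resembling TBC1D4 are the 5 with the highest r.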

Additional observations from a re-analysis of the deposited data

Results flagged for a closer look

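On 5 occasions 1 array stood apart from the other 5 of its group, in 80 tests of a group by Dixon's criterion (6.25%; chance gives about 1 in 20). The TBC1D4 probe set 203386_at had 1709 on control replicate B3 at 24 h, against 2621 to 3150 on the others. The TBC1D5 probe set 201813_s_at had 900.6 on control replicate B3 at 12 h, against 1081 to 1205. The dim TBC1D15 probe set 230072_at had 37.0 on miR-28 replicate B1 at 12 h, against 105.3 to 146.4, and 13.0 on control replicate A3 at 24 h, against 91.6 to 219.0. The dim TBC1D1 probe set 1568713_a_at had 16.6 on control replicate B2 at 12 h, against 54.8 to 89.0. All 5 arrays were the lowest of their group.

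For 2 TBC1D1 probe sets the genotypes separated in opposite directions in the A and B populations, and the difference at that time was not tested. Only member probe sets were searched and the share over all probe sets was not counted, so nothing is read from this count. At 12 h, 212350_at was higher in miR-28 cells between the populations lettered A (log2 difference 0.25) and lower between those lettered B (-0.25). The A populations barely separated, with a lowest miR-28 array of 875.7 against a highest control array of 874.1. At 24 h, the dim 1569566_at was lower in miR-28 cells between the A populations (-0.86) and higher between the B populations (0.71).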

How the results depend on the processing

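The TBC1D4 203387_s_at differences and the TBC1D9 212956_at difference at 24 h had the same sign in all 37 alternatives, of which 24 left out 1 array each. Since these comparisons were known when the genes were chosen, this and the counts between genotypes are a description. With population means as the unit, population A only and population B only the number of member probe sets called was 0 for each at 12 h, and 0, 1 and 0 at 24 h, against 1 and 2 as reported (the call in population A was TBC1D9 212960_at). With the stricter filter it was 3 at 24 h, TBC1D22A 209650_s_at being added. For the change with time the population settings called 0 in both genotypes. Without a filter the time change also had 0 calls in both genotypes. For miR-28 cells, pseudocount 1 called 2 members, quantile normalization 3 and median centring 3, and leaving out 1 array gave 1 to 3, against 1 as reported. The calls under quantile normalization and median centring, and some without 1 array, include the dim TBC1D1 1569566_at. Its miR-28 level at 12 h lay near background, so nothing is read from its calls. For control cells the stricter filter called 2, leaving out 1 array gave 0 to 2, and leaving out both arrays of raised ACTB ratio, an alternative chosen after seeing the data, gave 0. The cause was not tested. The fit with the replicate block called 1, 2, 1 and 1 members at 12 h, at 24 h, in miR-28 cells and in control cells, the same counts as reported, and same-numbered arrays did not deviate together (correlations between -0.11 and 0.06, with 1 of 6 closest to its own number in each pair of groups).

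The TBC1D4 probe set 203386_at changed sign for the time change in miR-28 cells with population A only (-0.10), without both arrays of raised ACTB ratio (-0.054) and without single arrays (range -0.086 to 0.107). In population B only it did so for control cells (-0.016) and for the difference between times (0.14). Over all probe sets, calls at 12 h numbered 37, against 83 with the stricter filter, 16 without a filter, 24 with median centring and 0 with the population settings. At 24 h they numbered 618, against 969 with the stricter filter and 228 without a filter. In miR-28 cells they numbered 554, against 1106 and 106. In control cells they numbered 893, against 1384 and 267, and 523 with median centring. The population settings gave at most 5 for these. Leaving out 1 array gave 15 to 42 calls at 12 h, 427 to 648 at 24 h, 376 to 687 in miR-28 cells and 558 to 935 in control cells, and for the difference between populations 0 to 10, against 0. Without a filter that difference had 2 calls. Median centring turned the share of higher calls to 66.2% at 24 h (45.6% as reported), 88.7% in miR-28 cells (50.9%) and 61.4% in control cells (51.1%). Probe sets dimmer than the filter have values too near background to give a level.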
